A study of Mus musculus with 8 samples.

Results

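Thrombin, ADP, ATP, thromboxane A2 and prostaglandins act on platelets through a small set of surface receptors, and 9 genes for these receptors were followed here in murine megakaryocytes (MKs) cultured with or without mesenchymal stem cells (MSCs). The genes were chosen by symbol for the ligand of their product, but with earlier results of these data known. They were the thrombin receptors F2r, F2rl2 and F2rl3, the purine receptors P2ry1, P2ry12 and P2rx1, and the prostanoid receptors Tbxa2r, Ptger3 and Ptgir. All 9 were among the 13387 genes of the deposited count table, and 8 of them were among the 11722 genes that passed edgeR's filter on low counts. P2ry12 did not pass. In the MKs cultured alone (4 libraries), bead-enriched CD41+ bone marrow cells were kept for 18 hours without other added cells, and in the cocultures (4 libraries) they shared the well with MSCs sorted as CD45-Ter119-CD31-CD51+CD140a+ bone marrow cells. All donors were wild-type C57BL/6 mice, given as 8 to 12 weeks old, thrombopoietin was given at 50 ng/mL, and each library pooled 5 wells. The labels describe the RNA as that of MKs after removal of platelets, while the paper describes platelets made in these cultures, so the fraction that was sequenced is not settled. The paper counts mice as replicates but the labels do not name an animal for any library, and p-values measure the spread between these libraries.

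Platelets have no nucleus and inherit their receptors and mRNA from MKs. Thrombin cleaves the N-terminus of protease-activated receptors (PARs), and the freed end then acts as a tethered ligand that signals through Gq and G12/13. Mouse platelets are known to respond to thrombin through PAR4 with PAR3 as a cofactor, whereas human platelets use PAR1 and PAR4. ADP acts through the Gq-coupled P2Y1, which starts calcium release and shape change, and the Gi-coupled P2Y12, which lowers cyclic AMP and sustains aggregation, and ATP opens the P2X1 cation channel. Thromboxane A2 and prostaglandin E2 (through EP3) promote activation, while prostacyclin raises cyclic AMP and keeps platelets at rest.

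None of the motifs searched was found at all 9 receptor genes. Promoter windows of 250 bases before to 50 bases after each start site were taken from RefSeq (GRCm38.p6), in which all 9 genes had an entry and Tbxa2r had 2. Both strands were searched for the letters of 4 motifs: GATAA for GATA factors, GGAAGT for ETS factors, TGTGGT for RUNX factors, and TGANTCA for NF-E2 and AP-1. The windows of F2r, F2rl2 and P2ry1 are shown because F2r and P2ry1 had the largest differences between the cultures, and because F2r and F2rl2 are neighbours on chromosome 13. Each is written 5' to 3' along its gene, with the motif letters in capitals.
F2r, chr13:95618417-95618716, minus strand: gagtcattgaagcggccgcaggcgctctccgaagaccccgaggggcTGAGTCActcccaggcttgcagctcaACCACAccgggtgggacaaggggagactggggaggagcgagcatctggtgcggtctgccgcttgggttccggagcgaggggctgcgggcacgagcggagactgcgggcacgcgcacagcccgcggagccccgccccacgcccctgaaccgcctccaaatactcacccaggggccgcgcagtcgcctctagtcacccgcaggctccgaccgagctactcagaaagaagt
F2rl2, chr13:95696670-95696969, plus strand: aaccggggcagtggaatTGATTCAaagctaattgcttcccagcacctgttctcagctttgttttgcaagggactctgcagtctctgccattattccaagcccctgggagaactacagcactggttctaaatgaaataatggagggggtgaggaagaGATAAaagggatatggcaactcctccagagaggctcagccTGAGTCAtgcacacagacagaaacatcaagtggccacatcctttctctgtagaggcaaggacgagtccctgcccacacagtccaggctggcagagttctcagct
P2ry1, chr3:61002535-61002834, plus strand: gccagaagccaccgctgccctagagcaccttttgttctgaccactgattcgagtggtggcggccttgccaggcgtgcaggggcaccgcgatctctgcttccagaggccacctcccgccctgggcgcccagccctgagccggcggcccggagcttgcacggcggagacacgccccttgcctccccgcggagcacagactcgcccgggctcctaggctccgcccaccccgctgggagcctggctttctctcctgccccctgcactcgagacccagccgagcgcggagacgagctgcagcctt
F2r held TGAGTCA at -204 and ACCACA, the reverse complement of the RUNX letters, at -178 from the start site. F2rl2 held TGATTCA at -233, GATAA at -94 and TGAGTCA at -54. P2ry1 held none of the 4. Outside these 3 genes, F2rl3 held the GATA letters at -157 and the ETS letters at -124, P2rx1 the GATA letters at -242 and P2ry12 the ETS letters at -51, and no match was found for Tbxa2r, Ptger3 and Ptgir. Such short words are common. The GATA letters were in 25.4% of all 32851 promoter windows, the ETS letters in 23.8%, the RUNX letters in 16.8% and the NF-E2 and AP-1 letters in 7.81%, and a match is a description of the sequence only. The windows of F2r and P2ry1 were GC-rich, with 68.7% and 70.7% G and C and 28 and 25 CpG dinucleotides, while that of F2rl2 had 50.7% and 2. The medians over all windows were 52.7% and 7.

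Library totals ran from 4939874 to 12523616 counts, and a floor of 3 counts equalled between 0.284 and 0.662 CPM (counts over the TMM-scaled library total from edgeR), which covers counting error only. Coculture replicate 3 stood apart. It held the most counts but only 10735 genes with a count, against 12406 to 13193 in the other 7 libraries, so the receptor genes are given with and without it, and other genes where it changes a call or moves a value by over 1.5 times. Neutrophil markers summed to between 84606 and 86382 CPM in MKs alone and between 4303 and 10218 CPM in cocultures, with 11 of 11 called lower, and S100a8 led them. Their lowest sum in coculture was 9602 CPM with replicate 3 left out. MSC markers summed to between 5.54 and 13.02 CPM and between 1808 and 4827 CPM, with 7 of 8 tested called higher, Sparc the highest and Lox at 0 in every library of MKs alone. Macrophage markers, led by Csf1r, went from between 176 and 239 to between 1151 and 1565 CPM (9 of 10 higher). The sums fell outside each other's range also for eosinophil (7 of 8 lower, highest Prg2), mast cell and basophil (3 of 5 lower, highest Cpa3), B cell (4 of 9 lower, highest Ms4a1) and endothelial markers (1 of 2 lower, Tek), but not for erythroid markers (0 of 3 called by edgeR, 1 lower at an unadjusted p under 0.05 and 1 called by DESeq2, highest Hbb-bs). MK and platelet markers summed to between 1943 and 2264 CPM in MKs alone and between 1752 and 2362 CPM in cocultures, and 0 of 15 were called by edgeR, with 1 lower at an unadjusted p under 0.05 and 1 called lower by DESeq2. With coculture replicate 3 left out, Gp1ba, Gp6 and Nbeal2 were called lower. In that fit MSC markers were called higher in 9 of 9 and macrophage markers in 10 of 10, and those of mast cells and basophils were lower in 4 of 5, of B cells in 5 of 9, of the endothelium in 2 of 2 and of the erythroid lineage in 4 of 5, with erythroid sums of 24.2 to 33.8 CPM in MKs alone and 7.16 to 10.4 CPM in the 3 cocultures. The part of this cell make-up in the receptor values was not tested.

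F2r, which encodes PAR1, was the highest of the 9 receptor genes per kilobase in MKs alone and the only one called lower in coculture with all 8 libraries. It lies on chromosome 13 at 95601803 to 95618487 (GRCm38, minus strand) and has 2 exons. MKs alone had 814, 587, 584 and 688 CPM in replicates 1 to 4, and cocultures had 271, 278, 144 and 258 CPM. Every coculture library was below every library of MKs alone. The means were 668 ± 109 and 238 ± 63.4 CPM (SD, n = 4 each), so the coculture mean was 35.6% of that of MKs alone. F2r fell by 1.49 ± 0.25 on the log2 scale (SE; edgeR quasi-likelihood test, Benjamini-Hochberg adjusted p = 0.00314, range over the alternatives 8.69e-14 to 0.117). It fell by 1.33 ± 0.18 without coculture replicate 3 (edgeR adjusted p = 1.02e-05). In bulk RNA, fewer cells of a type and less RNA per cell cannot be told apart. Genes were called lower when they were at least 2-fold lower at an adjusted p of at most 0.05 and reached a mean of 1 CPM in a group. By this rule 1 of the 8 tested receptor genes was lower, against 7.31% of all genes tested, and 0 were higher, against 13.2%. DESeq2 also called 1 lower and 0 higher, where it called 1259 of all 11722 genes lower and 1857 higher. In edgeR F2r and F2rl2 were lower at an adjusted p of at most 0.05, against 8.75% of all genes tested. No other receptor gene was lower, and 0 were higher, at an unadjusted p under 0.05, a limit for which no share over all genes was taken.

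**Figure D1:**
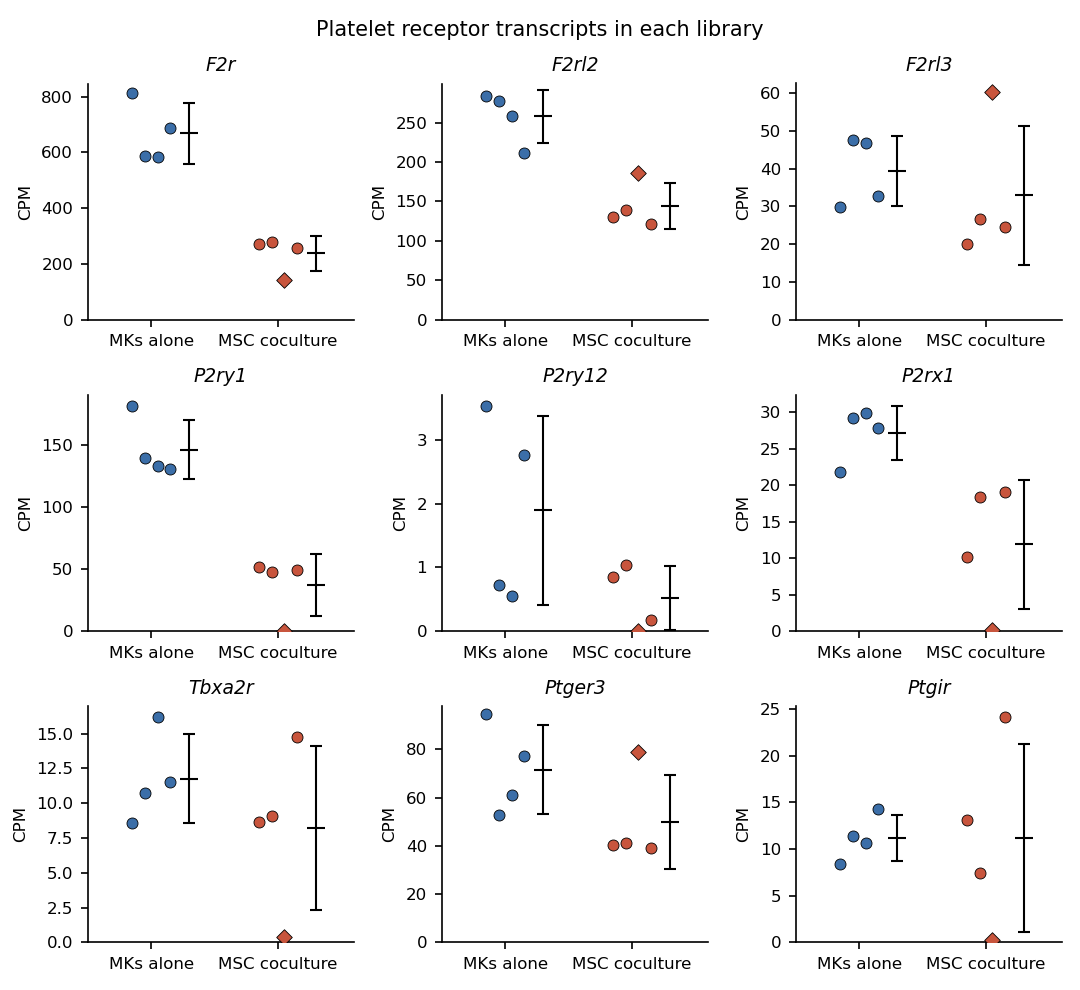
Level of each of the 9 receptor genes in CPM (vertical axes, linear, starting at 0, each panel with its own scale) in MKs alone (blue) and MSC cocultures (red); every point is a library, the diamond is coculture replicate 3, and bars are mean ± SD over 4 libraries. The F2r points of the cocultures lie between 144 and 278 CPM, below the 584 to 814 CPM of MKs alone, and the diamond lies at or near 0 for P2ry1, P2ry12, P2rx1, Tbxa2r and Ptgir.

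F2rl2 encodes PAR3, the cofactor that brings thrombin to PAR4. It lies on the same chromosome 13 at 95696853 to 95702739 (plus strand), inside Iqgap2 on the other strand. MKs alone had 284, 277, 258 and 211 CPM, and cocultures had 130, 139, 186 and 122 CPM. The groups did not overlap, although coculture replicate 3 at 186 CPM came near the lowest library of MKs alone. F2rl2 had a log2 fold change of -0.84 ± 0.20, which is under the 2-fold limit (edgeR adjusted p = 0.0166, range over the alternatives 1.74e-08 to 0.808), and it turned to 0.19 with libraries scaled to the geometric mean of MK markers. When coculture replicate 3 was left out the value was -1.002 ± 0.17 (edgeR adjusted p = 0.000104), just past the limit, but it was short of the limit without that library in DESeq2 (-0.97), with the replicate number as a block (-0.99) and with either scaling to MK markers (-0.81 and -0.55). The 2 genes share no exon, and Iqgap2 itself went from a mean of 152 to 55.6 CPM. Reads were assigned to transcripts, so those of spliced Iqgap2 RNA would not be counted for F2rl2. Whether strand was used in counting is not stated in the sources used here. A part of unspliced Iqgap2 RNA in the F2rl2 values was not tested.

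F2rl3 encodes PAR4, the signalling thrombin receptor of mouse platelets, at 72761880 to 72763874 of chromosome 8 (plus strand). MKs alone had 29.8, 47.7, 46.8 and 32.9 CPM, and cocultures had 20.2, 26.6, 60.3 and 24.6 CPM. Coculture replicate 3 was the highest of all 8 libraries and the other 3 cocultures were the lowest of all. The log2 fold change was -0.26 ± 0.40 with all libraries (edgeR adjusted p = 0.689, range over the alternatives 0.00356 to 0.918) and -0.75 ± 0.22 without coculture replicate 3 (edgeR adjusted p = 0.00919), which is less than 2-fold. F2rl3 was thus called in neither case.

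Outside coculture replicate 3, the length-scaled make-up of the thrombin receptor transcripts overlapped between the cultures. Reads per kilobase of the 3 genes were expressed as shares of their sum in each library, as a description with no test. F2r made up 65.5%, 56.6%, 58.0% and 67.2% in MKs alone and 56.7%, 54.8%, 29.1% and 55.9% in cocultures. F2rl2 made up between 27.4% and 35.7% in MKs alone and between 35.2% and 50.4% in cocultures, and F2rl3 between 4.01% and 7.77% and between 7.05% and 20.5%. Coculture replicate 3 held the lowest F2r share and the highest F2rl2 and F2rl3 shares. Without it the coculture means were 55.8 ± 0.97% for F2r, 36.0 ± 0.69% for F2rl2 and 8.24 ± 1.03% for F2rl3 (SD, n = 3), beside 61.8 ± 5.30%, 32.0 ± 3.73% and 6.21 ± 1.85% in MKs alone (n = 4). For each gene the shares of these 3 cocultures overlapped with those of MKs alone, for F2r only narrowly and only with length scaling. Without division by length, F2r made up 62.7% to 64.34% in these cocultures and 64.35% to 73.9% in MKs alone, with no overlap.

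**Figure D2:**
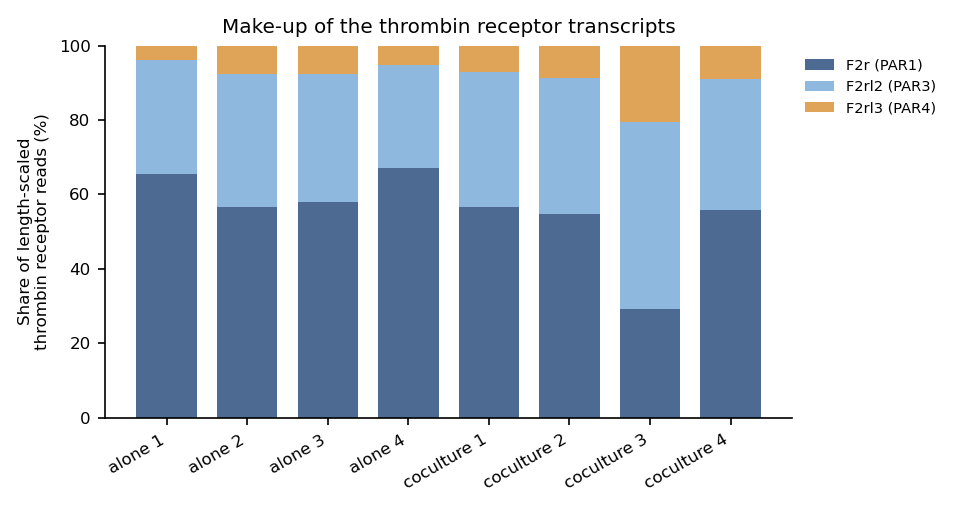
Share of F2r (PAR1), F2rl2 (PAR3) and F2rl3 (PAR4) in the length-scaled thrombin receptor reads (vertical axis, percent) of each library (horizontal axis); each bar sums to 100 percent. F2r is the largest share in 7 libraries and F2rl2 in coculture replicate 3, where F2r makes up 29.1%.

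P2ry1, the gene of the ADP receptor that starts calcium release, lay at 61002795 to 61008982 of chromosome 3 (plus strand). MKs alone had 181, 139, 133 and 130 CPM, and cocultures had 51.6, 47.3, 0 and 49.3 CPM. All cocultures were below all libraries of MKs alone, and coculture replicate 3 had 0 counts where 472 would match the level of the other cocultures. With all libraries the log2 fold change was -1.98 ± 1.07 and did not pass (edgeR adjusted p = 0.221, range over the alternatives 1.16e-16 to 0.348). In the other 3 cocultures the mean was 49.4 ± 2.14 CPM (SD, n = 3) beside 146 ± 23.8 CPM (n = 4), and without replicate 3 P2ry1 fell by 1.58 ± 0.18 on the log2 scale (edgeR adjusted p = 1.59e-06). It was called lower in all 5 of the fits without that library and in none of the fits with it. P2ry1 shares 992 bases of exon with Gm37035 on the other strand, so antisense reads could have been counted with it.

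P2ry12, the target of the clopidogrel class of antiplatelet drugs, was close to the floor. It held 16, 7, 5 and 17 counts in MKs alone and 9, 8, 0 and 1 in cocultures, or 1.89 ± 1.48 and 0.52 ± 0.51 CPM (SD, n = 4 each). The groups overlapped (two-sided exact permutation test, p = 0.171), and a difference was not detectable at this depth. It lies within Med12l on the other strand (chromosome 3, 59216272 to 59262871, minus strand), with 9 bases of exon shared.

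P2rx1 encodes the ATP-gated channel P2X1 (chromosome 11, 72999103 to 73015200, plus strand). It had 21.9, 29.2, 29.9 and 27.8 CPM in MKs alone and 10.1, 18.4, 0.10 and 19.1 CPM in cocultures. The groups did not overlap, and the lowest coculture was replicate 3, with 1 count where 152 would match the other cocultures. The log2 fold change was -1.19 ± 0.95 with all libraries (edgeR adjusted p = 0.408, range over the alternatives 0.00215 to 0.536) and -0.81 ± 0.25 without that library (edgeR adjusted p = 0.0114), which is less than 2-fold and so was not called.

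Tbxa2r, the thromboxane A2 receptor gene (chromosome 10, 81328731 to 81335172, plus strand), had 8.61, 10.7, 16.2 and 11.6 CPM in MKs alone and 8.63, 9.12, 0.42 and 14.7 CPM in cocultures. Apart from coculture replicate 3, the cocultures lay within the range of MKs alone. The log2 fold change was -0.52 ± 0.82 (edgeR adjusted p = 0.689, range over the alternatives 0.439 to 0.967) and -0.16 ± 0.30 without that library (edgeR adjusted p = 0.659). No difference was detected in either fit.

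Ptger3, the gene of the prostaglandin E2 receptor EP3 (chromosome 3, 157566892 to 157645888, plus strand), had 94.7, 53.0, 61.2 and 77.3 CPM in MKs alone and 40.2, 41.3, 79.1 and 39.2 CPM in cocultures. Replicates 1, 2 and 4 of the cocultures were below every library of MKs alone, whereas replicate 3 was above 3 of them. The log2 fold change was -0.52 ± 0.32 with all libraries (edgeR adjusted p = 0.280, range over the alternatives 0.000137 to 0.522). It was -0.84 ± 0.21 without coculture replicate 3 (edgeR adjusted p = 0.00263), again less than 2-fold.

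Ptgir, the prostacyclin receptor gene (chromosome 7, 16906490 to 16910905, plus strand), was the only member with a positive log2 fold change in the TMM-scaled edgeR fit without coculture replicate 3. It had 8.39, 11.4, 10.7 and 14.3 CPM in MKs alone and 13.1, 7.42, 0.21 and 24.1 CPM in cocultures. The cocultures held both the lowest and the highest value. The log2 fold change was -0.0034 ± 0.95 with all libraries (edgeR adjusted p = 0.998, range over the alternatives 0.0422 to 0.998) and 0.37 ± 0.34 without replicate 3 (edgeR adjusted p = 0.369), so no direction was shown.

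**Figure D3:**
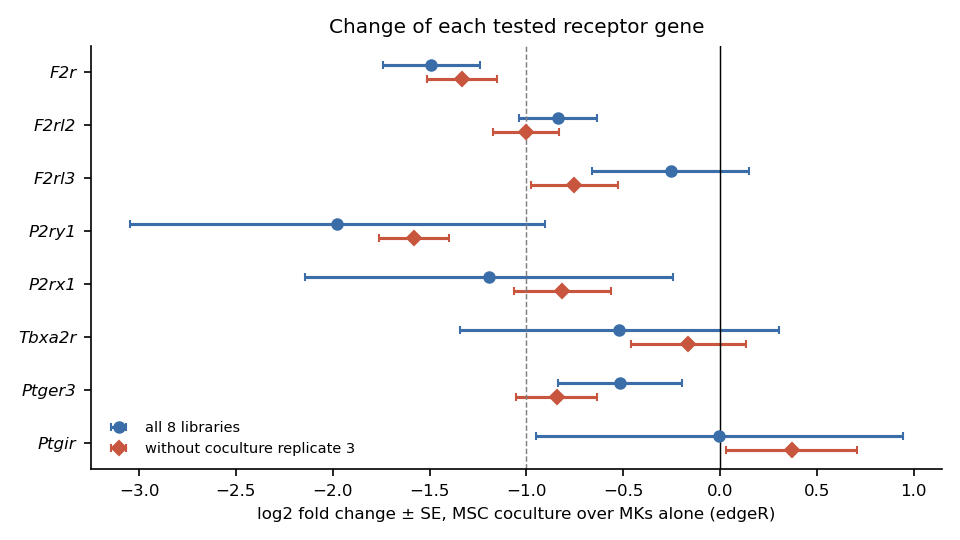
Log2 fold change ± SE of the 8 tested receptor genes (horizontal axis, MSC coculture over MKs alone, edgeR), with all 8 libraries (blue circles) and without coculture replicate 3 (red diamonds); the dashed line marks a 2-fold decrease. F2r lies beyond the dashed line in both fits, and the error of P2ry1 narrows from 1.07 to 0.18 without that library.

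Over the set, 4 of the 8 tested receptor genes had lower values in every coculture than in any library of MKs alone (F2r, F2rl2, P2ry1 and P2rx1), against 21.1% of all genes tested. Groups of 4 that do not overlap always give 0.0286 in the two-sided exact permutation test on log2(CPM + 1), the smallest p that 4 against 4 libraries allow, so that p adds nothing to the count. Where the groups of a tested receptor gene overlapped, the exact p ran from 0.143 for Ptger3 to 0.743 for Ptgir. When coculture replicate 3 was left out, F2rl3 and Ptger3 joined them, giving 6 of 8 against 25.4% of all genes. In that fit 3 of 8 were called lower against 15.4% of all genes, and 6 of 8 were lower at an adjusted p of at most 0.05 against 25.9%, compared with 2 of 8 against 8.75% when all libraries were used. No receptor gene lay above MKs alone in every coculture, as 19.3% of all genes did, or 30.7% without replicate 3. The median log2 fold change of the 8 genes was -0.68 with all libraries and -0.83 without replicate 3, beside 0.034 and 0.030 over all genes. Across all genes 857 were called lower and 1544 higher, or 1890 and 2530 without replicate 3.

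Relative to MK transcripts the picture depended on how those transcripts were combined. Scaled to the summed counts of the 15 MK and platelet markers, of which Pf4 alone made up 46.3%, F2r kept a log2 fold change of -1.36 and its call. Scaled to their geometric mean, which weighs each marker equally, F2r was at -0.77 and was not called (edgeR adjusted p = 0.117), and F2rl2, F2rl3 and Ptger3 turned positive at 0.19, 0.97 and 0.59. This scaling moved the median of all genes from 0.034 to 0.86, with 379 genes called lower and 2527 higher. Relative to the median of 0.86, F2r was at -1.63, F2rl2 at -0.67, F2rl3 at 0.10, P2ry1 at -2.42 and Ptger3 at -0.27. The geometric scaling without coculture replicate 3 gave -1.14 for P2ry1, which was called, and -0.90 for F2r, which was not, with 1086 genes lower and 3730 higher. In that fit F2rl2, F2rl3 and Ptger3 were negative again, at -0.55, -0.29 and -0.41, and were not called.

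Coculture replicate 3 split the receptor genes. Its CPM was 143% of the mean of the other 3 cocultures for F2rl2, 197% for Ptger3 and 253% for F2rl3, and 53.3% for F2r. In contrast it was 3.87% for Tbxa2r, 1.41% for Ptgir, 0.66% for P2rx1 and 0% for P2ry1 and P2ry12. For Tbxa2r 103 counts would match the other cocultures and for Ptgir 142, where 4 and 2 were found. Such losses were common in this library and more so among low genes. Of the genes with a mean of 5 to 25 CPM in the other cocultures, 40.7% were under 5% of that mean in replicate 3, compared with 18.2% of those at 25 to 100 CPM and 3.06% of those at 100 CPM or more. The 3 receptor genes between 5 and 25 CPM that were nearly lost (P2rx1, Tbxa2r and Ptgir) and P2ry1 at 49.4 CPM thus fell in ranges where many genes did the same.

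**Figure D4:**
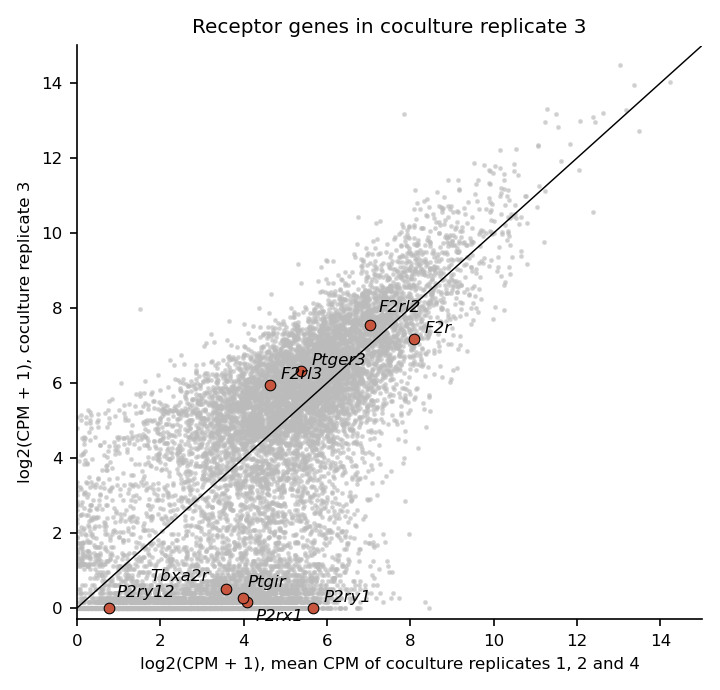
Log2(CPM + 1) of every gene in coculture replicate 3 (vertical axis) against that of the mean CPM of coculture replicates 1, 2 and 4 (horizontal axis), with the 9 receptor genes in red and the line of equal values. F2rl2, Ptger3 and F2rl3 lie above the line and F2r below it, whereas P2ry1, P2ry12, P2rx1, Tbxa2r and Ptgir lie at or near 0 among many other genes.

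Per kilobase of exon, the order of the receptor genes in MKs alone was led by the thrombin receptor genes F2r and F2rl2. F2r stood at 200 ± 32.5 CPM per kilobase (SD, n = 4), followed by F2rl2 at 103 ± 13.2, P2ry1 at 34.0 ± 5.54 and F2rl3 at 19.7 ± 4.66. Ptger3 had 12.6 ± 3.24, P2rx1 10.4 ± 1.40, Tbxa2r 6.13 ± 1.67, Ptgir 3.36 ± 0.73 and P2ry12 0.74 ± 0.58 CPM per kilobase. The ranges of neighbours overlapped for F2rl3 and Ptger3, for Ptger3 and P2rx1, and for P2rx1 and Tbxa2r, so these are not ordered beyond their spread between libraries, although P2rx1 was above Tbxa2r within each of the 4 libraries. Ptger3 depended on its length, since its longest single transcript gave a mean of 22.7 CPM per kilobase in place of 12.6. In cocultures F2r had 71.3 ± 19.0 and F2rl2 57.7 ± 11.5 CPM per kilobase, with overlapping ranges, and F2rl2 was above F2rl3 (16.5 ± 9.24) in every library. Without replicate 3, F2r at 80.7 ± 3.18 was again clear of F2rl2 at 52.1 ± 3.49 (n = 3).

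The genes most like each receptor gene were taken by Pearson's r of log2(CPM + 1) over the 8 libraries, among genes with a mean of at least 10 CPM, as a description of points that share groups and one library that stands apart. For F2r these were Kctd12, Serinc3 and Frg1 (r = 0.99 each), for F2rl2 Pot1a, Rchy1 and Cmas (0.99 each), and for F2rl3 Rps27 (0.99), Ptk2b and Cux1 (0.98 each). For P2ry1 they were Setd2 (0.9997), Apaf1 and Ifngr1 (0.999 each) and for P2rx1 Paqr7 (0.998), Trappc5 and Ache (0.997 each). These 6 genes were low in coculture replicate 3 as well, with 0.73 CPM for Setd2 against a mean of 24.1 CPM in the other cocultures, and 0.11 against 15.1 CPM for Ache. Tbxa2r was most like Mlst8 (0.996), Cdt1 and Dvl2 (0.99 each), Ptger3 most like Tbc1d4 (0.99), Cd9 and Hdac9 (0.97 each), and Ptgir most like Slc2a6, Ppp1r15a and Sesn2 (0.97 each). Among the receptor genes themselves, r of P2ry1 with P2rx1 was 0.97 and with Tbxa2r 0.92, and r of F2r with P2ry1 was 0.86. These became 0.72, 0.070 and 0.99 without coculture replicate 3, and r of F2r with F2rl2 went from 0.73 to 0.94.

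The related receptors outside the set, 22 genes of the same families, held 1 rise and 1 fall among 14 tested, where 13.2% of all genes rose and 7.31% fell. Among all 11722 genes DESeq2 called 1857 rises and 1259 falls, and among these related receptors 1 rise and 3 falls. Ltb4r1, a receptor for leukotriene B4 and the highest of them, fell from 152 ± 39.0 to 13.3 ± 5.19 CPM (log2 fold change -3.51, edgeR adjusted p = 0.00030). P2ry6, a receptor for UDP, rose from 2.04 ± 0.87 to 27.0 ± 12.8 CPM (3.70, adjusted p = 0.00234, edgeR). Their median log2 fold change was -1.06, and without coculture replicate 3 there were 2 rises and 6 falls among 15 tested, where 20.6% of all genes rose and 15.4% fell. The markers of neutrophils fell and those of macrophages rose in the same libraries, and their part in these values was not tested.

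Among 21 genes of Gq and G12/13 signalling, which PARs, P2Y1 and the thromboxane receptor use, 2 rose and 1 fell, against 13.2% and 7.31% of all genes. Gna11 and Gna12, which encode G protein alpha subunits, rose from 6.91 ± 1.68 to 129 ± 100 CPM and from 45.2 ± 14.5 to 126 ± 69.4 CPM (log2 fold changes 4.21 and 1.48, edgeR adjusted p = 0.000697 and 0.0317). Coculture replicate 3 was the highest library for both, at 279 and 226 CPM, and the other 3 cocultures averaged 78.8 ± 8.31 CPM for Gna11 (log2 fold change 3.47) and 92.5 ± 23.9 CPM for Gna12. Rasgrp2, the exchange factor that links calcium to Rap1, fell from 21.8 ± 2.82 to 6.72 ± 1.92 CPM (-1.69, adjusted p = 0.0166, edgeR). Rap1b, the small GTPase upstream of integrin activation and the highest of the list per kilobase, went from a mean of 3835 to 1979 CPM with a log2 fold change of -0.95, under the 2-fold limit. There were 6 rises and 4 falls without coculture replicate 3, against 20.6% and 15.4% of all genes, and the list's median was -0.21 instead of -0.27. Scaled to the geometric mean of MK markers, 5 rose and 0 fell, where 2527 of all 11722 genes rose and 379 fell.

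Of the genes of Gi and Gz signalling, downstream of P2Y12 and EP3, 2 rose and 2 fell among 17 tested, against 13.2% and 7.31% of all genes. Pik3cg, the catalytic subunit of PI3K gamma, fell from 300 ± 27.7 to 64.1 ± 7.32 CPM (log2 fold change -2.23, edgeR adjusted p = 5.27e-05), and Gnai3, a Gi alpha subunit, from 704 ± 162 to 300.1 ± 100 CPM (-1.23, adjusted p = 0.0177, edgeR). The beta subunit genes Gnb1 and Gnb5 rose by 1.09 and 1.37 on the log2 scale (edgeR adjusted p = 0.0428 and 0.0478), and Gnb1 was not called without coculture replicate 3 (0.61). Gng5, the highest per kilobase, had means of 1139 and 1054 CPM and was not called. The median was 0.13, and -0.23 without replicate 3, when 2 rose and 3 fell among 18, against 20.6% and 15.4% of all genes. With DESeq2's size factors (RLE) in edgeR 0 rose and 2 fell, where 1489 of all 11722 genes rose and 882 fell.

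In the Gs and cyclic nucleotide list, the arm that prostacyclin uses, 4 of 19 tested genes rose and 0 fell in edgeR, with 2 lower at an unadjusted p under 0.05 and 1 called lower by DESeq2. Over all genes 13.2% rose and 7.31% fell in edgeR, and DESeq2 called 1259 of 11722 lower. Gnas, which encodes the Gs alpha subunit, rose from 133 ± 33.9 to 389 ± 221 CPM, Prkaca, a catalytic subunit of protein kinase A, from 25.01 ± 4.37 to 77.2 ± 51.6 CPM, and its regulatory subunit Prkar1b from 0.46 ± 0.22 to 16.1 ± 5.68 CPM. Their log2 fold changes were 1.55, 1.62 and 5.04 (edgeR adjusted p = 0.0200, 0.0274 and 0.00060), and that of Prkaca was 1.02 without coculture replicate 3, where it had 154 CPM. The other rise was Prkar2a, and the highest gene per kilobase, Prkar1a, was not called (0.24). Without coculture replicate 3 there were 5 rises and 4 falls, against 20.6% and 15.4% of all genes, the falls being Pde4b, Pde4d, Pde5a and Vasp, and the median went from -0.39 to 0.016.

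Receptor regulators, which shut off G protein signalling or phosphorylate active receptors, held 4 falls and 0 rises among 15 tested in edgeR, with 0 higher at an unadjusted p under 0.05 and 0 by DESeq2. The shares of all genes were 7.31% and 13.2% in edgeR, and DESeq2 called 1857 of 11722 higher. Rgs18, a regulator of G protein signalling that is abundant in platelets, was the highest and fell from 720 ± 253 to 292 ± 49.5 CPM (log2 fold change -1.30, edgeR adjusted p = 0.00908). Rgs2 fell from 184 ± 18.1 to 51.2 ± 45.1 CPM (-1.85, adjusted p = 0.0292, edgeR) and the receptor kinase gene Grk3 from 14.6 ± 5.75 to 1.66 ± 1.17 CPM (-3.12, adjusted p = 0.0294, edgeR), and Rgs19 was the fourth. Rgs2 had 119 CPM in coculture replicate 3 and averaged 28.7 ± 2.92 CPM in the other 3 (-2.70 without that library). Without coculture replicate 3, 8 fell and Rgs16 rose, against 15.4% and 20.6% of all genes, with a median of -1.17 instead of -0.65. Scaled to the geometric mean of MK markers, 1 of the list was called lower, where 379 of all 11722 genes were.

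Genes for the supply and removal of the ligands moved both ways, with 4 rises and 4 falls among 14 tested, against 13.2% and 7.31% of all genes. Ptgs2, the inducible cyclooxygenase, rose from 0.70 ± 0.63 to 156 ± 69.0 CPM, and Slco2a1, a prostaglandin transporter, from 0.40 ± 0.40 to 67.6 ± 7.39 CPM (log2 fold changes 7.80 and 7.27, edgeR adjusted p = 0.000255 and 8.97e-05). Hpgds, the hematopoietic prostaglandin D synthase, rose from 6.27 ± 3.98 to 59.8 ± 34.96 CPM (3.27, adjusted p = 0.00399, edgeR). Falls were seen for Hpgd, which degrades prostaglandins, from 30.6 ± 15.1 to 1.61 ± 1.76 CPM, and for the ectonucleotidases Nt5e, from 76.7 ± 10.7 to 6.04 ± 3.77 CPM, and Entpd1, from 31.2 ± 1.43 to 4.55 ± 3.13 CPM. Their log2 fold changes were -4.23, -3.66 and -2.77 (edgeR adjusted p = 0.0213, 0.00289 and 0.0366). Thbd rose and Tbxas1 fell by 1.06 on the log2 scale, while Ptges3, the highest per kilobase, was not called (-0.19). Leaving out coculture replicate 3 gave 5 rises and 4 falls, against 20.6% and 15.4% of all genes, and Tbxas1 was then under the 2-fold limit (-0.90). The falls were 2 in number with library sizes only or with the summed MK markers, where 746 and 703 of all 11722 genes fell. MSC marker transcripts were near 0 in MKs alone and at least 1808 CPM in cocultures, as Ptgs2 and Slco2a1 also were near 0 in MKs alone, and the cells in which these genes were transcribed were not tested.

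**Figure D5:**
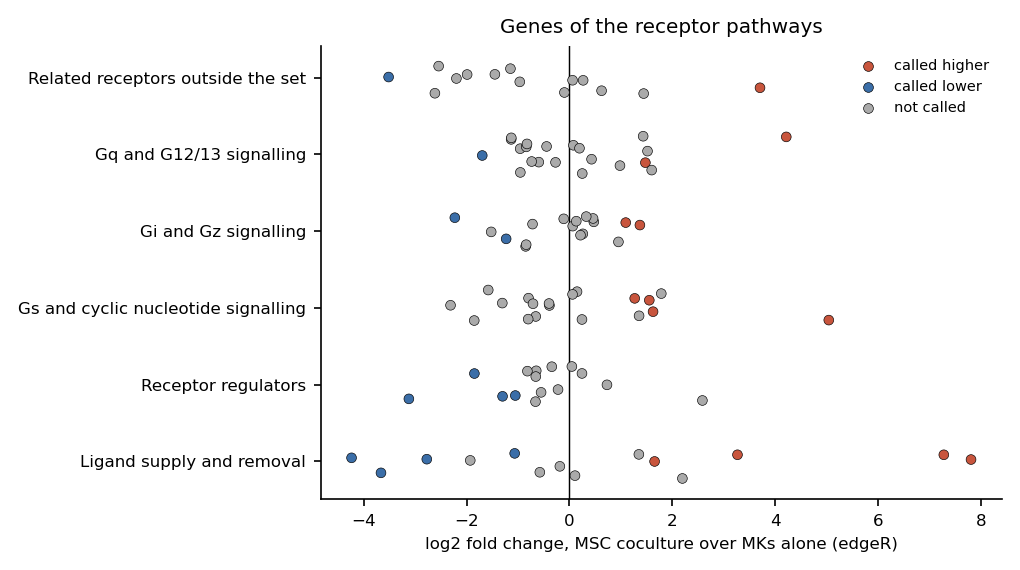
Log2 fold change (horizontal axis, MSC coculture over MKs alone, edgeR, all 8 libraries) of every tested gene in 6 lists of the receptor pathways; red points were called higher, blue points lower and grey points neither, and the vertical spread within a list only separates points. Receptor regulators hold 4 blue points and no red one, and the Gs and cyclic nucleotide list 4 red points and no blue one.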

How the data were processed

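Bulk RNA-Seq libraries of MKs cultured alone (4) or with MSCs (4) were analysed, grouped by their labels. According to the methods and the labels, RNA was amplified by the SMART-Seq HT method and read in pairs, fastp removed poor reads, and kallisto assigned the rest to mm10 transcripts. The table that the authors deposited holds raw counts per gene, whole numbers with no normalization and at least 11 counts per gene over the 8 libraries. How transcripts were summed to genes, and whether strand was used, is not given in the sources used here, and the authors' DESeq2 design held batches that are not named. Totals ran from 4939874 to 12523616 counts.

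The counts were tested with edgeR 4.0.16 under R 4.3.3 (TMM, filterByExpr, robust quasi-likelihood fit and F test over all 8 libraries with no covariate) and p-values were adjusted by Benjamini-Hochberg over 11722 genes. A call needed a 2-fold change, an adjusted p no higher than 0.05 and a group mean of 1 CPM or more, which are the limits of the paper's methods applied to CPM instead of TPM. SE is the absolute log2 fold change over the square root of F. Single levels were tested by a two-sided exact permutation test of log2(CPM + 1), with a pseudocount of 1 (scipy 1.17.1). In simulated counts for this comparison with 200 genes changed 8-fold, edgeR called 200 of these and 5 others among 11622 genes, and DESeq2 1.42.0 called 200 and 4 others. The simulated spread was that of the libraries without coculture replicate 3. Genes with a low expected count in the smallest library were not among those changed. The simulation thus cannot show the power for smaller changes, for low genes or with the spread that replicate 3 adds. Loci and exon lengths came from GENCODE vM21 (GRCm38, the assembly behind mm10), and promoter windows from RefSeq (GRCm38.p6).

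The receptor genes, pathway lists and marker lists were chosen with earlier results of these data known. Named were the 9 receptor genes, the highest gene of each list (per kilobase in pathway lists), up to 3 called rises and 3 called falls with the largest change at 10 CPM or more in each pathway list, and the 3 genes most like each receptor gene. Iqgap2, Gm37035 and Med12l are named because they overlap a receptor gene, and Gp1ba, Gp6, Nbeal2, Lox, Prkar2a, Rgs19, Rgs16, Thbd, Tbxas1, Pde4b, Pde4d, Pde5a and Vasp were added after their values were seen. Alternatives were DESeq2, other scalings and filters, no CPM cutoff, the replicate number as a block, and each library left out in turn. The geometric mean of MK markers and the combined alternatives without coculture replicate 3 were added after seeing the data.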

Additional observations from a re-analysis of the deposited data

Results flagged for a closer look

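In 6 of 24 groups of values, taken from both cultures, 1 library lay apart from the other 3 of its culture by Dixon's test. Chance gives about 1 in 20, or 1.2. The library was coculture replicate 3 each time, and it was part of the coculture groups only. It was low for F2r with a log2(CPM + 1) of 7.18, low for P2ry1 with a log2(CPM + 1) of 0, and high for Ptger3 with a log2(CPM + 1) of 6.32. Its shares of the length-scaled thrombin receptor reads were 29.1% for F2r, 50.4% for F2rl2 and 20.5% for F2rl3. All 6 came from this library, and the 3 shares of 1 library sum to the whole, so they are not separate observations. The library had 10735 genes with a count and the lowest TMM factor of the 8, 0.76, and the part of these in the receptor values was not tested.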

How the results depend on the processing

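The count of receptor genes called lower was 1 with all libraries, 0 when scaled to the geometric mean of the MK markers, and 2 without coculture replicate 3 in DESeq2, with the replicate block, or scaled to the summed markers. Over all genes, the TMM-scaled edgeR fit with all libraries called 857 of 11722 lower and the geometric mean 379. The settings without coculture replicate 3 called 1800, 1899 and 1509 of 12267 lower, in the order given. With single libraries left out the receptor count ran from 1 to 3. The 3 was without coculture replicate 3, where 1890 of 12267 genes were lower. No setting called a receptor gene higher. Over all genes 2401 were called, from 1634 to 4420 with single libraries left out, and 4404 (summed markers), 4816 (geometric mean), 4363 (DESeq2) and 4494 (replicate block) without coculture replicate 3. Requiring 10 counts in each of the libraries left no value for P2ry1, P2rx1, Tbxa2r and Ptgir, and P2ry12 had a value only when every gene with a count was tested (log2 fold change -1.82, edgeR adjusted p = 0.286).

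With the geometric mean of the markers and all libraries, F2rl2 (0.19), F2rl3 (0.97) and Ptger3 (0.59) turned positive. Without coculture replicate 3 they were negative under that scaling (-0.55, -0.29 and -0.41). Tbxa2r turned positive without that library (0.27, or 0.020 with the replicate block instead). Ptgir, at -0.0034, had no stable sign. It was 0.12 with library sizes only, 0.10 and 0.39 with the summed and geometric markers, 0.50 and 0.77 with these without coculture replicate 3, 0.41 in DESeq2 and 0.24 with the block without that library, and from -0.67 to 0.37 with single libraries left out. The other values of single genes under an alternative kept their direction, 140 with the same call, 6 with a call gained and 2 with a call lost. Leaving out coculture replicate 3 took the difference in share (coculture minus MKs alone, percentage points) from -12.7 to -6.06 for F2r, from 7.63 to 4.03 for F2rl2 and from 5.08 to 2.03 for F2rl3. The causes of these shifts were not tested.

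Whether the replicate numbers pair the libraries was not settled. The correlations of same-numbered deviations were 0.37, 0.020, 0.15 and 0.028, and those between different numbers ran from -0.28 to 0.099. Not every library correlated best with its own number. With the replicate block and all libraries, F2r fell by 1.52 on the log2 scale (edgeR adjusted p = 0.0107) and 1669 genes were called in place of 2401. With 4 libraries a group, none of P2ry1, P2rx1, Tbxa2r and Ptgir, the tested genes nearly lost from coculture replicate 3, passed the test, their SE being 0.82 to 1.07.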
